A study of Mus musculus with 15 samples.

Results

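The samples described here were the 7 wild-type mice of a study of secreted frizzled-related protein 5 (Sfrp5), out of 15 mice in all. They were male C57BL6/J mice aged 12 weeks fed a high-fat diet from 4 weeks of age, 8 weeks in all, and that carried no engineered allele. Gonadal white adipose tissue was taken from each, and its total RNA was extracted with RNA Stat60, amplified from 10 ng with a whole-transcript kit and hybridised to an Affymetrix mouse gene array. The labels call the arrays biological replicates 1 to 7, and each is taken here as 1 mouse. The mutant mice of the series were not used, so no genotype is compared.

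Each array gave log2 signals for 35557 probe sets, of which 21789 carried exactly 1 gene symbol. With the brightest probe set standing for each gene, 19938 genes were measured, and 11064 had a mean log2 signal above 7 over the 7 mice. A difference of 1 on this scale is a doubling of signal. The array medians lay between 6.99 and 7.05. Replicate 4 stood furthest from the rest, with a median correlation of 0.97 with the other arrays over all genes. Replicate 7 followed at 0.98, and the other arrays reached 0.99. Results that rest on replicates 4 and 7 are therefore given with and without them. Array position equals replicate number in the labels, so position and mouse cannot be told apart.

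Gonadal fat of male mice is the fat pad attached to the epididymis, the coiled duct in which sperm mature. Its adipocytes store triglyceride and secrete hormones such as leptin, and they share the pad with endothelial cells, progenitors, macrophages and a covering of mesothelium. On a high-fat diet this pad enlarges and gathers macrophages, some of which take up lipid from adipocytes. The labelled tissue was borne out by its markers: all 21 measured adipocyte identity genes had a mean above 7, beside 11064 of all 19938 genes. Adipoq, which encodes adiponectin, ran from 12.33 to 12.67. Ucp1, the uncoupling protein of brown fat, ran from 5.49 to 6.21.

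The brightest genes differed little between mice. Of the 30 brightest genes, 22 were named genes, 7 encoded ribosomal proteins and 1 was a small RNA. Their means ran from 12.86 to 13.37 and their median SD was 0.053, with 29 of the 30 below 0.1. Eef1a1, the translation elongation factor, was the brightest at 13.37 ± 0.05 (SD, n = 7). Probe sets differ in affinity, so these are ranks of signal and not of transcript number.

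Several of the named genes serve fat cells. Car3, the carbonic anhydrase abundant in adipocytes, stood at 13.24 ± 0.07 (SD, n = 7). Cd36, a fatty acid transporter, was at 13.09 ± 0.04, and Fabp4, the adipocyte fatty acid binding protein, at 13.09 ± 0.07. Scd1, which desaturates fatty acids, gave 13.08 ± 0.08, and Lpl, the lipase that frees fatty acids from circulating triglyceride, gave 12.98 ± 0.04. Dbi, the acyl-CoA binding protein, reached 13.10 ± 0.04. The distance from the lowest to the highest mouse was largest for Scd1 among these 6, at 0.23, from 12.99 in replicate 7 to 13.22 in replicate 6.

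Structural and secreted proteins were also among the 30. Sparc, a matrix glycoprotein, had a mean of 13.17 ± 0.04 (SD, n = 7) and Lgals1, a galectin, a mean of 13.20 ± 0.05. Actb, which encodes beta-actin, was at 13.07 ± 0.07. Respiratory chain subunits were represented by Cox6c at 13.30 ± 0.05 and Cox6b1 at 13.10 ± 0.09, and the antioxidant enzyme Sod1 by 12.94 ± 0.06. The other named genes were Gas5, a noncoding host of small nucleolar RNAs, Anapc13, Tmsb10, Itm2b, Calm2, Dynlrb1, S100a11 and Myl6, with means from 12.86 to 13.20.

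Baiap2l1 departed from this evenness. It ranked as the second brightest gene at 13.31 ± 0.27 (SD, n = 7), with 12.73 in replicate 7 and 13.30 to 13.52 elsewhere. Its 3 probe sets did not behave alike: one averaged 11.73 and correlated with the brightest at r = 0.98 over the 7 mice, and the other averaged 6.73 with r = -0.46. Which of them measures the transcript cannot be told apart from these values.

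Among the 200 brightest genes the least variable was Tbca, a tubulin folding cofactor, with values from 12.46 to 12.49 and an SD of 0.013. Ribosomal proteins Rpl4, Rps6 and Rps20, the respiratory subunits Ndufc2 and Atp5j2, the vesicle transport protein Rab1a, S100a11, Naca and Ppia completed the 10 steadiest. The spread fell as signal rose. The median SD was 0.150 for genes with means from 7 to 8, 0.132 from 9 to 10, 0.10 from 11 to 12 and 0.068 above 12, against 0.178 for the 8874 genes at or below 7.

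**Figure D1:**
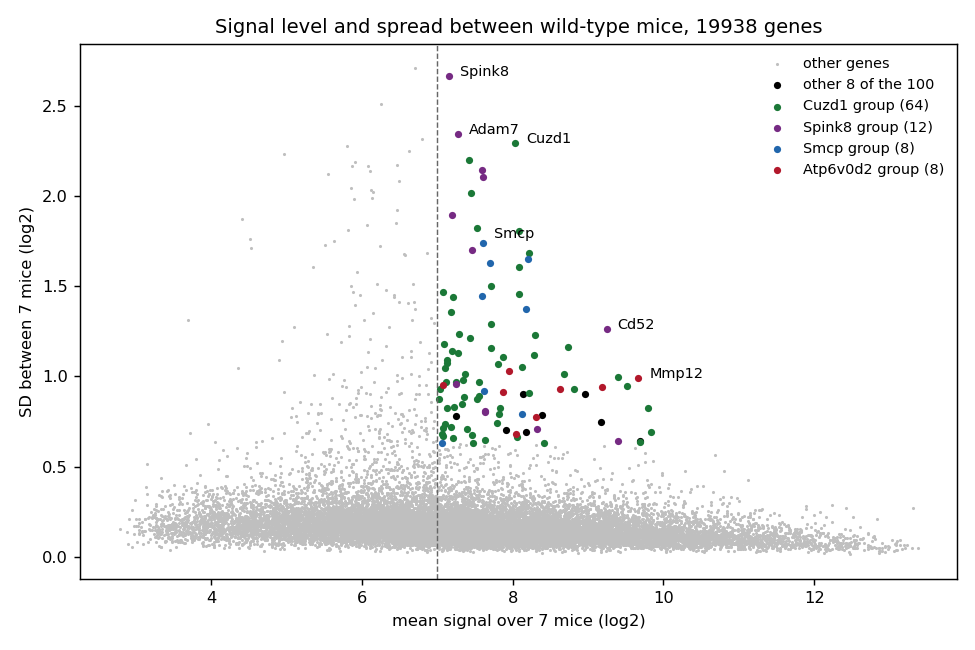
The plot sets each gene's mean log2 signal over the 7 mice (horizontal axis) against its SD between mice (vertical axis, log2) for 19938 genes, with the 100 genes of largest SD above the dashed line at 7 coloured by group. Most genes lie near the median SD of 0.138, and the coloured genes stand from 0.629 upward, led by Spink8 at 2.67.

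Over the 11064 genes with means above 7 the median SD was 0.138, with quartiles of 0.103 and 0.188. An SD above 0.3 was found in 611 genes (5.52%), above 0.5 in 168 and above 1 in 43. The 100 genes of largest SD had SDs from 0.629 to 2.67 and are described below. In 97 of the 100 the mouse farthest from the gene's median lay above it, and 36 had a median at or below 7, so that a few bright mice carried their mean over the threshold. The choice of these genes rests on their SD, and what follows describes them without a test.

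Replicates 4 and 7 supplied most of this variation. Replicate 7 was the farthest mouse for 42 of the 100 genes and replicate 4 for 38, followed by replicate 2 for 12, replicate 5 for 5, replicate 1 for 2 and replicate 6 for 1. Over all 11064 genes replicate 4 was farthest for 24.4% and replicate 7 for 18.3%, with 9.42% to 13.7% for each other mouse. The shares of all genes highest or lowest in each mouse were not computed. Counts of list members highest or lowest in a mouse therefore lack that background. Replicate 4 alone carried 43.0% of the summed squared deviations of the 100 genes, and replicates 4 and 7 together 63.3%. Without both mice, 33 of the 100 genes remained in the list and the number with an SD above 1 fell to 12.

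The 100 genes varied in blocks. Of their 4950 pairs, 46.0% correlated above 0.7 over the 7 mice and the median r was 0.64, beside 7.08% and 0.06 for pairs drawn from all genes with means above 7. Grouping by average linkage at r = 0.7 gave 9 groups, of which the largest held 64, 12, 8 and 8 genes. The groups were formed on these same values and are a description. All correlations are over the same 7 mice, so a mouse that stands apart in many genes enters each of them.

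**Figure D2:**
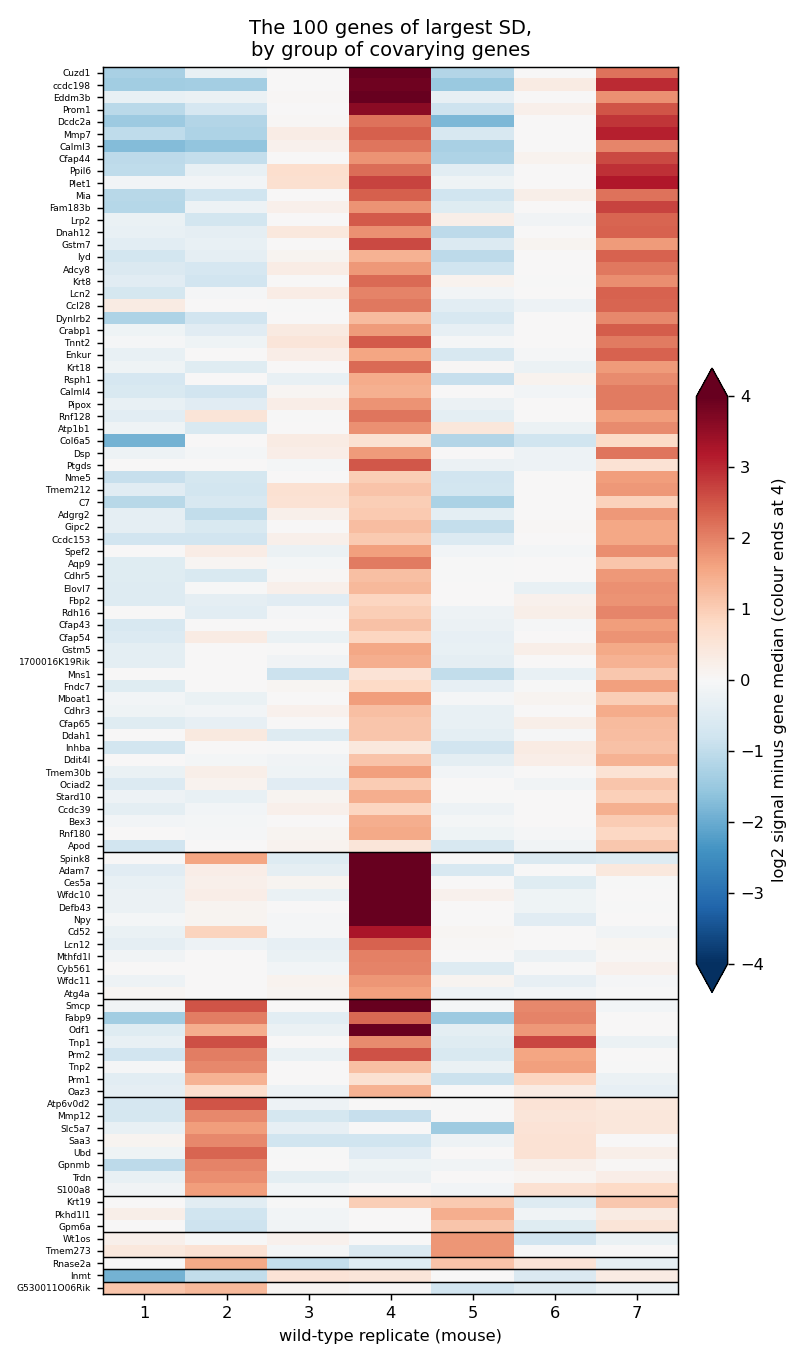
The heat map shows the 100 genes of largest SD (rows, in order of group, with black lines between groups) in wild-type replicates 1 to 7 (columns), coloured by log2 signal minus the gene's median, red above and blue below. The 64 genes of the first block are red in replicates 4 and 7, the 12 of the next in replicate 4, the first block of 8 in replicates 2, 4 and 6, and the other block of 8 in replicate 2.

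A group of 12 genes, which held Spink8 and Adam7, the genes of largest SD among those with means above 7, was high in replicate 4. They include secreted proteins of the epididymal duct, which protect sperm and modify their surface. Spink8, a protease inhibitor of the Kazal family, ran from 5.60 through a median of 6.19 to 12.96. Adam7, a membrane protein of epididymal epithelium, reached 12.52 in replicate 4 against 5.90 to 6.96 in the other 6 mice. Ces5a, a carboxylesterase secreted in the epididymis, reached 12.42 against 6.38 to 7.07.

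The remaining members had the same shape. Wfdc10, of the whey acidic protein family, stood at 12.36 in replicate 4 and at 6.60 to 7.11 elsewhere. Defb43, a beta-defensin, stood at 11.47 against 6.30 to 6.63, and Npy, which encodes neuropeptide Y, at 11.29 against 6.44 to 7.01. Cd52, a small surface glycoprotein of lymphocytes and of epididymal epithelium, was at 8.45 to 9.60 in the other mice and at 11.98 in replicate 4. Lcn12, Mthfd1l, Cyb561, Wfdc11 and Atg4a completed the group. In all 12 genes replicate 4 was the highest mouse, on average 3.85 above the gene's median. The median r within the group was 0.97 with all 7 mice and 0.27 without replicate 4. A separate probe set for Ces5a followed the reported one at r = 0.996.

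The list of 32 measured epididymis and testis markers was read for comparison, although it was chosen with results of these data known. Without the sperm genes Prm1, Prm2 and Tnp1 it held 29 members, whose mean signal was 7.51 in replicate 4 and 5.56 to 5.94 in the other mice. In 11 of the 29, replicate 4 exceeded every other mouse by more than 1. These 29 include Spink8, Adam7, Wfdc10 and Lcn12, which were selected for their SD and grouped by this pattern. Without them 25 members remained, with a mean of 6.82 in replicate 4 and 5.42 to 5.82 in the other mice, and 7 of the 25 exceeded every other mouse by more than 1. Members with low means took part: Rnase9 reached 10.33 in replicate 4 against 4.48 to 5.11, Serpina16 10.34 against 5.66 to 6.16, and Crisp4 8.39 against 3.73 to 3.99. Others did not. Gpx5, a glutathione peroxidase of the proximal epididymis, lay between 4.93 and 5.33 with its lowest value in replicate 4, and Lcn5 between 6.01 and 6.33. The pattern was not confined to replicate 4: it was the highest mouse for 16 of the 29, and replicate 7 for 6. Lcn8 was at 8.03 in replicate 7 and 6.01 to 6.83 elsewhere. Defb29 was at 8.01 in replicate 4, 7.99 in replicate 7 and 6.69 to 6.86 elsewhere. The part of epididymal tissue in the replicate 4 sample was not tested beyond these marker levels. In such bulk tissue a difference in the number of cells of a type and a difference in RNA per cell cannot be told apart.

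The 250 bases before the annotated start were read for 8 of the 12 genes from RefSeq (GRCm38.p6). The letters AGAACA, which form a half-site of the androgen receptor's binding sequence, were searched on both strands because epididymal genes are known to depend on androgen. They were found in 4 of the 8, beside 12.9% of the 8832 genes with a mean above 7 and a listed promoter, and 16.1% of all 32851 promoters. In the group of 64 genes they were in 10 of 55 listed promoters, and in the groups of 8 genes in 0 of 5 and 2 of 6. Such a match is a description of letters and not a bound site. The Ces5a promoter is shown as the example, from chr8:93535841-93536090 on the minus strand, with AGAACA in capitals at bases -59 to -54 before the start.
Ces5a: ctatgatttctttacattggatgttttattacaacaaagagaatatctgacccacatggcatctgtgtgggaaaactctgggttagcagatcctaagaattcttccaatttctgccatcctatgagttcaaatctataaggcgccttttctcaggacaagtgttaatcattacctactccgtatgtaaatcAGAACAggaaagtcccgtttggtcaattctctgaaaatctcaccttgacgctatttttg

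The largest block, 64 genes, was high in both replicate 4 and replicate 7. No list of ciliary or ductal genes had been drawn up, so the roles given for its members are background and no class is counted. On average they stood 1.73 above the gene's median in replicate 4 and 1.80 in replicate 7, with replicates 3 and 6 near the median and replicates 1, 2 and 5 below it by 0.33 to 0.53 on average. The highest mouse was replicate 7 in 42 genes and replicate 4 in 22. The median r within the block was 0.91, 0.90 without replicate 7, and 0.49 without replicates 4 and 7.

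By SD the block was led by Cuzd1. Cuzd1, a membrane protein of secretory epithelium, ran from 6.08 in replicate 1 through a median of 7.38 to 12.54 in replicate 4, with 9.55 in replicate 7. Mmp7, a metalloproteinase made by ductal epithelium, was at 10.18 in replicate 4 and 10.90 in replicate 7 and did not exceed 8.10 elsewhere. Prom1, a protein of membrane protrusions, was at 10.61 and 9.52 in these mice and no higher than 7.18 in the rest. For these genes the 2 high mice did not overlap the other 5.

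The simple-epithelium keratins took part as well. Krt8 was at 10.57 in replicate 4 and 10.15 in replicate 7 against 7.54 to 8.43 in the others, and its partner Krt18 at 8.94 and 8.39 against 6.19 to 6.74. Lrp2, the endocytic receptor megalin, gave 9.60 and 9.48 against 6.41 to 7.40. Lcn2, a siderophore-binding lipocalin, gave 9.16 and 9.53 against 6.49 to 7.47. Some members were much higher in replicate 4 than in replicate 7. Eddm3b, an epididymal secretory protein, was at 11.67 in replicate 4, 8.40 in replicate 7 and 6.25 to 6.61 elsewhere, and Ptgds, a prostaglandin D synthase, was at 9.36, 7.45 and 6.64 to 6.91.

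Some members have known roles in cilia and were picked out after their values were seen. Dnah12, a heavy chain of axonemal dynein, reached 8.69 in replicate 4 and 9.22 in replicate 7 with 5.83 to 7.28 in the other mice. Cfap44, a cilia and flagella protein, reached 9.30 and 10.17 with 6.29 to 7.66 elsewhere. Rsph1, of the radial spoke, was at 9.04 and 9.47 with 6.65 to 7.72 elsewhere, and Dynlrb2, a light chain of cytoplasmic dynein, at 8.44 and 9.10 with 5.96 to 7.22 elsewhere. Dcdc2a, a doublecortin-domain protein of cilia, reached 10.15 and 10.85 with 6.18 to 8.04 elsewhere. Enkur, Cfap43, Cfap54, Cfap65, Spef2, Ccdc39, Mns1 and Nme5 were further members with ciliary or flagellar roles. A separate probe set of Dnah12 followed the reported one at r = 0.96. Calml3, Plet1, Mia, Gstm7, Crabp1, Iyd, Adcy8, Ccl28, Tnnt2, Calml4 and Pipox were among the rest, each highest in replicate 4 or 7.

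In replicates 3 and 6 some of these genes sat between the extremes. Dcdc2a was at 8.04 and 7.98 there, and at 6.18 to 6.81 in replicates 1, 2 and 5. Calml3, a calmodulin-like protein of epithelium, was at 8.31 and 8.13, and at 6.41 to 6.84 in replicates 1, 2 and 5. The ordering of the mice within the block was therefore not solely that of replicates 4 and 7 for these genes, and with both left out a group of 9 genes that included Calml3, Dcdc2a and Mmp7 still formed at r = 0.7, high in replicates 3 and 6. Adipocyte identity genes were lowest in the same mice, with list means of 10.94 in replicate 7 and 11.07 in replicate 4 against 11.16 to 11.29 in the others. Whether this difference is related to the genes of the block was not tested.

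Promoters were found for 55 of the 64 genes. Ciliary genes are known targets of RFX factors, whose X-box is an inverted repeat, so its letters were searched on both strands. The spelling GTTGCC, any 2 bases, GGNAAC was in none of the 55. A looser spelling, GTTGC and GCAAC with any 3 or 4 bases between them, was added after the sequences had been read. Its count in these same sequences is therefore no support for an excess. It was in 2 of the 55 (3.64%), beside 0.385% of the 8832 genes with means above 7 and 0.347% of all promoters. Both are shown on the plus strand of GRCm38.p6 with the repeat in capitals, Dynlrb2 from chr8:116504765-116505014 at bases -51 to -39 and Cfap44 from chr16:44394549-44394798 at bases -27 to -14.
Dynlrb2: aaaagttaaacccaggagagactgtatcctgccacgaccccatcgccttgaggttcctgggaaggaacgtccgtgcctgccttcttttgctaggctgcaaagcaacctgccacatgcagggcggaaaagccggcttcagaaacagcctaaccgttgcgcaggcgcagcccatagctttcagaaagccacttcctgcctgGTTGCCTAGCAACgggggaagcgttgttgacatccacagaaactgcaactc
Cfap44: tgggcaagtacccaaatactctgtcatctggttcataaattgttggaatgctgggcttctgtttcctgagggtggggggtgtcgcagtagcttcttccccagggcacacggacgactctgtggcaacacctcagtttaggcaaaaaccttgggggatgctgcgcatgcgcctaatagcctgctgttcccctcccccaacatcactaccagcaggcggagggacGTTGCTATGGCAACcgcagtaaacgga

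A further block, of 8 genes, belongs to sperm. Smcp encodes a capsule protein of sperm mitochondria, Odf1 a protein of the outer dense fibres of the tail, Prm1 and Prm2 the protamines that pack sperm DNA, Tnp1 and Tnp2 the transition proteins that precede them, Fabp9 a fatty acid binding protein of the testis, and Oaz3 the antizyme of haploid germ cells. All were high in replicates 2, 4 and 6 and low in replicates 1, 3, 5 and 7. On average replicate 4 stood 2.26 above the gene's median, replicate 2 1.84 and replicate 6 1.59.

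Prm2 was at 9.59, 10.06 and 9.11 in replicates 2, 4 and 6 and at 6.75 to 7.53 in the other 4 mice. Tnp1 was at 9.31, 8.62 and 9.40 and at 6.23 to 6.72 in the others. Smcp was at 8.94, 10.64 and 8.34 and at 6.26 to 6.41. These 3 genes separate the same mice with no overlap, but in a different order, since replicate 4 led for Smcp, Odf1, Prm2, Fabp9 and Oaz3, replicate 2 for Prm1 and Tnp2, and replicate 6 for Tnp1. Odf1 reached 10.79 in replicate 4 with 8.31 and 8.57 in replicates 2 and 6. The block did not depend on replicate 4: its median r was 0.91 with all mice, 0.96 without replicate 4 and 0.93 without replicates 4 and 2. In replicates 2 and 6 the epididymal secretory genes were far below replicate 4, with Adam7 at 6.79 and 6.54, Wfdc10 at 7.11 and 6.69, and Spink8 at 7.76 and 5.60.

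Sequences before the start were listed for 5 of the 8 genes. The cyclic AMP response element TGACGTCA, known for its part in gene activity of haploid germ cells, was in none of them on either strand. The looser letters TGANNTCA were added after the sequences had been read, so their count in these sequences is no support for an excess. They were in 2 of the 5, beside 10.3% of genes with means above 7 and 11.9% of all promoters. The pair is shown on the minus strand of GRCm38.p6 with these letters in capitals, Prm1 from chr16:10796824-10797073 at bases -64 to -57 and Tnp1 from chr1:73015900-73016149 at bases -94 to -87.
Prm1: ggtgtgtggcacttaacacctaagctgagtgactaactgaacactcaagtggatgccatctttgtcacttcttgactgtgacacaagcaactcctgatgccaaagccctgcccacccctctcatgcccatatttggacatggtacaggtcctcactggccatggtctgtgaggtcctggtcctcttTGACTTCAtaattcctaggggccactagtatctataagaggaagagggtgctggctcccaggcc
Tnp1: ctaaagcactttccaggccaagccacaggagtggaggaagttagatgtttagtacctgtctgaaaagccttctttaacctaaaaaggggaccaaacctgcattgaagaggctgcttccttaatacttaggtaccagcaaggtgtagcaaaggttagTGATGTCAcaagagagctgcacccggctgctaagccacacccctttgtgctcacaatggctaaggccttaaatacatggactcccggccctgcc

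**Figure D3:**
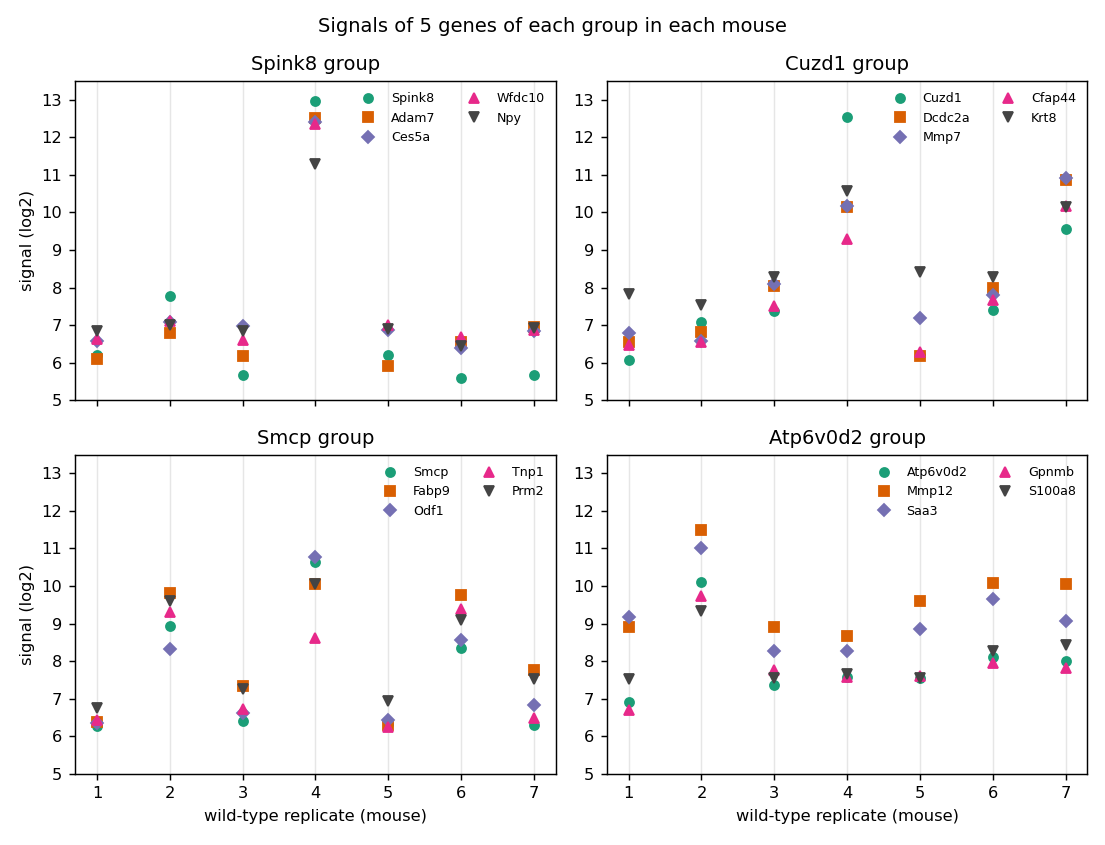
Each panel plots the log2 signal (vertical axis) of 5 genes of 1 group in wild-type replicates 1 to 7 (horizontal axis), with 1 symbol per gene and no averaging. Replicate 4 stands alone for the Spink8 group, replicates 4 and 7 for the Cuzd1 group, replicates 2, 4 and 6 for the Smcp group, and replicate 2 for the Atp6v0d2 group.

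Another block, also of 8 genes, was high in replicate 2. It held Atp6v0d2, a subunit of the lysosomal proton pump, Mmp12, the macrophage elastase, Gpnmb, a glycoprotein of lysosome-rich macrophages, Saa3, an acute-phase protein, S100a8, a subunit of calprotectin, Ubd, a ubiquitin-like modifier, and Slc5a7 and Trdn. Replicate 2 was the highest mouse in all 8, on average 1.98 above the median, and the median r was 0.92 with all mice and 0.62 without replicate 2. Atp6v0d2 ran from 6.92 through a median of 7.58 to 10.10, a signal 5.75 times the median. Mmp12 ran from 8.66 through 9.60 to 11.50, and Gpnmb from 6.70 through 7.75 to 9.73. No other mouse exceeded 8.12 for Atp6v0d2, 10.07 for Mmp12 or 7.96 for Gpnmb.

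Most of the macrophage list varied with them. Of its 22 measured members, 16 were highest in replicate 2 and 6 in replicate 5, and the list mean was 9.19 in replicate 2, 8.95 in replicate 5 and 8.60 to 8.86 in the others. Replicate 2 was the farthest mouse for 12 of the 20 members with means above 7, beside 13.7% of all genes. Cd68, a lysosomal protein of macrophages, reached 10.66 in replicate 2 against 9.52 to 9.99, and Ctss, cathepsin S, 11.43 against 10.46 to 10.81. Itgax, the CD11c integrin of macrophages that surround adipocytes in obese fat, reached 7.65 against 6.63 to 6.99. Adgre1, which encodes the F4/80 antigen, ranged only from 8.65 to 9.34, with replicate 2 again highest. The 6 members highest in replicate 5 were Cd163, Mertk, C1qa, C1qc, Msr1 and Marco. Cd163 went the other way, with its lowest value, 8.97, in replicate 2 and 9.57 in replicate 5.

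Of 19 measured genes of lipid-associated macrophages, 14 were highest in replicate 2. For 11 of the 16 with means above 7 replicate 2 was the farthest mouse, beside 13.7% of all genes. Of the same 16, 3 were among the 100 genes of largest SD, beside 0.904% of all genes with means above 7. Trem2, the lipid receptor of these cells, varied little, from 7.21 to 7.66. Apoe went the other way, with its lowest value, 11.77, in replicate 2 and 12.04 in replicate 3. The list mean was 10.15 in replicate 2 and 9.40 to 9.64 elsewhere. The 3 among the 100, Atp6v0d2, Mmp12 and Gpnmb, belong to the block of 8. Without them the mean of the other 16 measured genes was 10.10 in replicate 2 and 9.70 to 9.81 elsewhere. Replicate 2 was the highest mouse for 11 of these. Antigen presentation genes of MHC class II were also highest in this mouse, with a mean of 9.46 in replicate 2 and 8.96 to 9.13 in the others, and H2-Aa was at 11.19 against 10.64 to 10.87. Among cytokines, chemokines and acute-phase genes, 14 of the 19 with means above 7 were highest in replicate 2, and 13 of the 17 that were not among the 100. The median pairwise r of macrophage genes with means above 7 was 0.72, beside 0.06 for pairs of all genes.

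Replicate 5 was set apart by signals of genes of mesothelium, the epithelial sheet that covers the fat pad. The part of mesothelium in each sample was not tested beyond marker levels. Of 20 measured mesothelial genes, 14 were highest in replicate 5, and the list mean was 8.42 there, 8.20 in replicate 4, 8.13 in replicate 7 and 7.47 to 7.82 in the other 4 mice. Without the 4 members among the 100, the mean of 16 genes was 8.36 in replicate 5 and 7.48 to 7.89 elsewhere. Upk3b, a uroplakin and a defining mesothelial marker, was at 9.29 in replicate 5 and at 7.76 to 8.33 elsewhere. Upk1b was at 9.84 against 8.01 to 8.62, and Muc16, a surface mucin, at 9.01 against 7.08 to 7.71. Msln, mesothelin, was at 8.38 against 7.23 to 7.83.

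The keratins of this list divided. Krt8 and Krt18 belonged to the Cuzd1 group, and without them the list mean of 18 genes was 8.51 in replicate 5, 8.03 in replicate 4 and 8.01 in replicate 7. Krt19 formed a group of 3 with Pkhd1l1 and Gpm6a and was high in 3 mice, at 8.60 in replicate 4, 8.64 in replicate 5 and 8.68 in replicate 7, against 7.10 to 7.60. Gpm6a, a membrane glycoprotein, was highest in replicate 5 at 10.79 with 10.19 in replicate 7. Wt1os, antisense to the mesothelial regulator Wt1, and Tmem273 formed a pair that was high in replicate 5, at 8.85 and 10.64. Strand-specific labelling was not stated in the sources used here, so signals of Wt1os and Wt1 may not be separable. Lowest for mesothelial genes were replicates 2 and 6, with 9 and 7 of the 20 minima.

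Cell division genes formed the tightest list. All 19 measured members were highest in replicate 1, including the 4 with means at or below 7, and the median pairwise r of the 15 above 7 was 0.89. Replicate 1 was the farthest mouse for 14 of those 15, beside 12.9% of all genes. The list mean was 7.98 in replicate 1, 7.70 in replicate 2, 7.42 in replicate 6 and 7.05 to 7.29 in replicates 3, 5 and 7, with replicate 4 lowest. Top2a, the topoisomerase that untangles replicated chromosomes, ran from 8.06 in replicate 4 through a median of 8.43 to 9.63 in replicate 1. Its other probe set averaged 4.70 and did not follow it, at r = 0.04. Kif11, a spindle motor, ran from 7.07 through 7.63 to 8.58 in the same mice, and Mki67, the proliferation antigen, from 7.06 through 7.63 to 8.68. Their SDs, 0.55 to 0.57, were below those of the 100. No member of this list was among the 100, near the 0.904% share of all genes with means above 7. With 200 genes a group of 18 contained 5 members of the list, and with replicates 4 and 7 left out a group of 30 containing 6 members became the largest.

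The sequence ATTGG, the inverted CCAAT box bound by NF-Y and known from promoters of cell division genes, was searched on both strands of the 12 listed promoters of this list. It was in 9 of the 12, beside 39.4% of genes with means above 7 and 33.8% of all promoters. Top2a held 6 matches and is shown from chr11:99024190-99024439 on the minus strand of GRCm38.p6, with each match in capitals; a match on the other strand reads CCAAT.
Top2a: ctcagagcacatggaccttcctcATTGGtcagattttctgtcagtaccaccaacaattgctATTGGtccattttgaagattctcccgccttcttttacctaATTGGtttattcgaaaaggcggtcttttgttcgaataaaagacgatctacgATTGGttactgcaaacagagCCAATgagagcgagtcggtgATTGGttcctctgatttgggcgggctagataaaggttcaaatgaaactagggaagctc

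The edges of the selection were as follows. Just inside the 100 were Oaz3 at an SD of 0.63, Rnf180 and Apod, and just outside were Prr11, Adh6b and Sectm1b, with 0.627 the largest SD left out. The filter on the mean left out further genes of large SD. The 3 of largest SD with means from 6.5 to 7 were highest in replicate 4. Rnase12, a ribonuclease-family gene, reached 12.69 in replicate 4 against 5.20 to 6.96, BC048679 reached 11.97 against 5.32 to 6.48, and Wfdc16 reached 11.66 against 5.24 to 6.39. With no filter, 65 of the 100 genes of largest SD had means at or below 7. The 100 included 3 genes that joined no group. Inmt, an amine methyltransferase, was low in replicate 1 at 6.54 and between 7.45 and 8.98 elsewhere, Rnase2a was highest in replicates 2 and 5 at 10.29 and 9.89, and G530011O06Rik was high in replicates 1 and 2.

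Genes of the adipocyte itself were bright. The median SD of the 21 adipocyte identity genes was 0.150, beside 0.138 for all genes with means above 7. Spread fell as signal rose, and the list means of these genes ran from 10.94 to 11.29 in the 7 mice. All genes had a median SD of 0.114 at means from 10 to 11 and 0.10 from 11 to 12. Gene means within the list ran from 7.92 to 13.24, and spread at matched signal was not tested. None of the 21 was among the 100, which hold 0.904% of all genes with means above 7, so a count of 0 is near that share. Replicate 7 was the lowest mouse for 13 of the 21 and replicate 6 the highest for 10. Replicate 7 was the farthest mouse for 9 of the 21, beside 18.3% of all genes. Plin1, the perilipin that coats lipid droplets, was at 10.16 in replicate 7 and 10.69 to 11.03 elsewhere. Gpd1, which makes glycerol phosphate for triglyceride, ran from 9.06 in replicate 7 through 9.70 to 10.25 in replicate 1. Adipoq had an SD of 0.12.

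Lipid synthesis genes were highest in replicate 1 for 14 of 24 members and lowest in replicate 7 for 14 of 24, and some genes, such as Fasn and Acly, were both. Replicates 1 and 7 were each the farthest mouse for 7 of the 24, beside 12.9% and 18.3% of all genes. Fasn, fatty acid synthase, was at 10.93 in replicate 1 and 10.10 in replicate 7, and Acly, which supplies its acetyl-CoA, at 9.60 and 8.61. Fads2, a desaturase, ran the other way, at 9.30 in replicate 4, 8.72 in replicate 7 and 7.76 to 8.10 elsewhere. Genes linked to expansion of fat were highest in replicates 2 and 6, both with list means of 10.31, against 9.94 to 10.06 in the others. Mest, a marker of fat expansion, ran from 10.56 in replicate 4 to 11.67 in replicate 2, and Sfrp5 itself ran from 7.66 in replicate 7 to 8.33 in replicate 2.

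**Figure D4:**
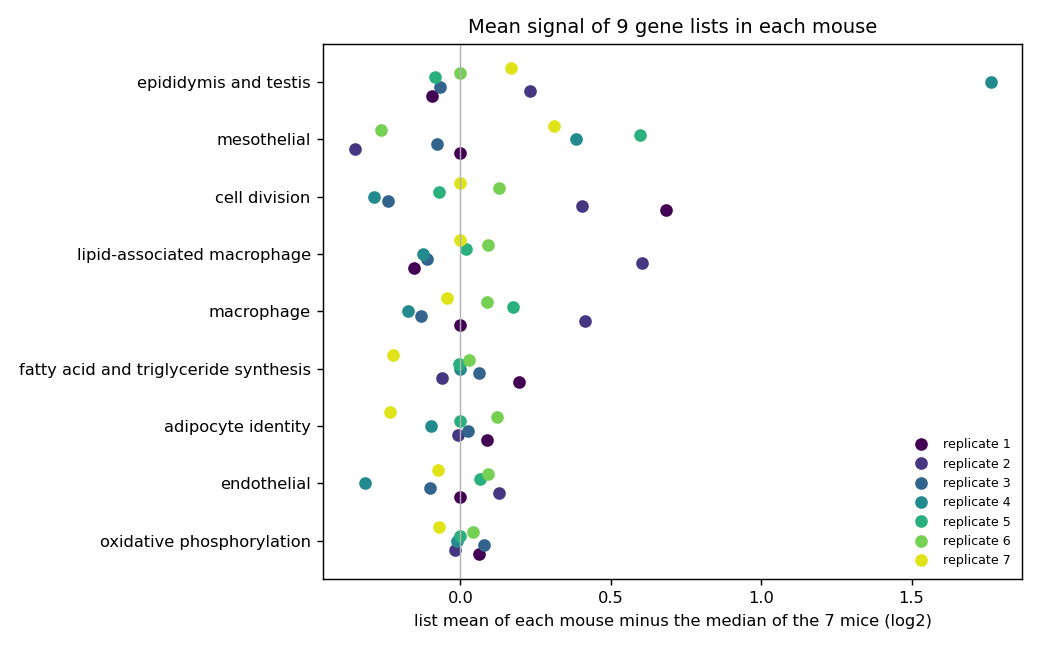
Points show, for 9 gene lists (rows), each mouse's mean log2 signal over all measured members minus the median of the 7 mice, coloured by replicate. Replicate 4 lies furthest right for the epididymis and testis list, replicate 5 for mesothelial genes, replicate 1 for cell division, and replicate 2 for both macrophage lists.

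Vessel genes had a different exception. Of the 20 endothelial genes none had an SD above 0.3, near the 5.52% share of all genes with means above 7. Their median SD was 0.206, beside 0.138 for all those genes. Replicate 4 was lowest for 13 of the 20. It was the farthest mouse for 12 of them, beside 24.4% of all genes. The endothelial list mean was 8.68 in replicate 4 and 8.89 to 9.12 in the other mice. Kdr, the main receptor for vascular endothelial growth factor, was at 8.69 in replicate 4 against 9.18 to 9.52, and Tek, the angiopoietin receptor, at 8.84 against 9.34 to 9.59. Interferon-stimulated genes were highest in replicate 1 for 11 of 19 and lowest in replicate 4 for 10 of 19. Of the 17 with means above 7, replicate 1 was farthest for 7 and replicate 4 for 6. The shares over all genes were 12.9% and 24.4%. Iigp1, an interferon-induced GTPase, ran from 9.33 in replicate 2 to 10.42 in replicate 7, outside that order.

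In muscle and immediate early genes no mouse led throughout. Smooth muscle Cnn1, calponin, was highest in replicates 4 and 7 at 8.70 and 8.68, and low in replicates 1, 2 and 5 at 7.36 to 7.49. Casq1, a calcium-binding protein of skeletal muscle, was at 8.12 in replicate 2 against 6.88 to 7.26, while Myl1, a skeletal muscle myosin light chain, was lowest there at 8.35. Egr2, an immediate early gene, was at 8.94 in replicate 2 against 7.93 to 8.25. Nr1d1, a repressor of the circadian clock, ran from 9.18 in replicate 1 to 10.38 in replicates 5 and 6, and Nfil3 from 7.71 in replicate 5 to 8.90 in replicate 1. The 14 clock genes with means above 7 had a median SD of 0.249, beside 0.138 for all genes, and 4 of the 14 had an SD above 0.3, beside 5.52%.

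At the steady end were housekeeping lists. The 38 measured genes of oxidative phosphorylation had a median SD of 0.080 and the 32 of cytosolic ribosomal proteins one of 0.069. No member of either exceeded 0.3, beside 5.52% of all genes with means above 7. Their list means ran from 11.31 to 11.46 and from 11.84 to 11.98 in the 7 mice. All genes had a median SD of 0.10 at means from 11 to 12 and 0.068 above 12. Spread at matched signal was not tested. Ndufv1, a complex I subunit, was at 9.60 in replicate 7 against 9.96 to 10.11, and Rplp1 at 11.54 against 11.92 to 12.28. T and natural killer cell genes with means above 7 numbered 6 of 18 and B and plasma cell genes 4 of 15, beside 11064 of all 19938 genes. None of either was among the 100. As the 100 hold 0.904% of genes with means above 7, a count of 0 is near that share. For pancreas, liver and gut 6 of 21 had means above 7, and for major urinary proteins 0 of 3.

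Relations between single genes were examined in 24 pairs chosen for their known links, with earlier results of these data known. Pearson's r and Spearman's rho over the 7 mice were used, with exact two-sided permutation tests. After Benjamini-Hochberg adjustment over the 24 pairs none passed 0.05, with a smallest adjusted p of 0.057 for r and 0.098 for rho by the exact permutation test. Unadjusted, 10 pairs for r and 6 for rho had an exact permutation p under 0.05. The smallest p that 5040 pairings can give is 0.000198.

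Lep, which encodes leptin, ran from 11.28 in replicate 3 to 11.93 in replicate 2. With Sfrp5 it gave r = 0.91 (exact permutation p = 0.0087, adjusted p = 0.057) and rho = 0.79 (exact permutation p = 0.048, adjusted p = 0.19). Without replicates 2 and 6, the mice farthest from the median of Lep, r was 0.26, so the relation rested on those mice. With Adgre1, Lep gave r = 0.90 (exact permutation p = 0.0044, adjusted p = 0.057) and rho = 0.86 (exact permutation p = 0.024, adjusted p = 0.11), and r was 0.77 without the same mice. Lep and Adipoq gave r = 0.02 (exact permutation p = 0.97, adjusted p = 0.97) and rho = 0.

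Other pairs were related by pathway or cell type. Fasn and Acly gave r = 0.89 (exact permutation p = 0.0081, adjusted p = 0.057) and rho = 0.93 (exact permutation p = 0.0067, adjusted p = 0.098), with r = 0.52 once replicates 1 and 7 were left out. Upk3b and Msln gave r = 0.90 (exact permutation p = 0.0095, adjusted p = 0.057) and rho = 0.75 (exact permutation p = 0.066, adjusted p = 0.20), with r = 0.67 without replicates 5 and 6. Arntl, the activator of the circadian clock, and its target Dbp gave r = -0.86 (exact permutation p = 0.016, adjusted p = 0.071) and rho = -0.89 (exact permutation p = 0.012, adjusted p = 0.098). That pair kept its size without replicates 1 and 5, at r = -0.97. The immediate early genes Fos and Egr1 gave r = 0.84 (exact permutation p = 0.018, adjusted p = 0.071) and rho = 0.89 (exact permutation p = 0.012, adjusted p = 0.098), with r = 0.65 without replicates 5 and 6.

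The macrophage pairs depended on which mice were left out. Adgre1 and Cd68 gave r = 0.83 (exact permutation p = 0.033, adjusted p = 0.11) and r = 0.15 without replicates 2 and 4. Cd68 and Itgax gave r = 0.87 (exact permutation p = 0.047, adjusted p = 0.11) and r = 0.33 without replicates 2 and 6. Trem2 and Gpnmb gave r = 0.65 (exact permutation p = 0.11, adjusted p = 0.18) and r = 0.78 without replicates 6 and 2. With replicate 2 alone left out, r for Trem2 and Gpnmb fell to 0.047. Gpx5 and Adam7, both genes of the epididymis, gave r = -0.50 (exact permutation p = 0.22, adjusted p = 0.31). Gpx5 was dim, at 4.93 to 5.33, and replicate 4 alone carried 83.4% of the summed squared deviations of Adam7. Col1a1 and Col3a1, the fibrillar collagens, gave r = -0.23 (exact permutation p = 0.65, adjusted p = 0.77).

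**Figure D5:**
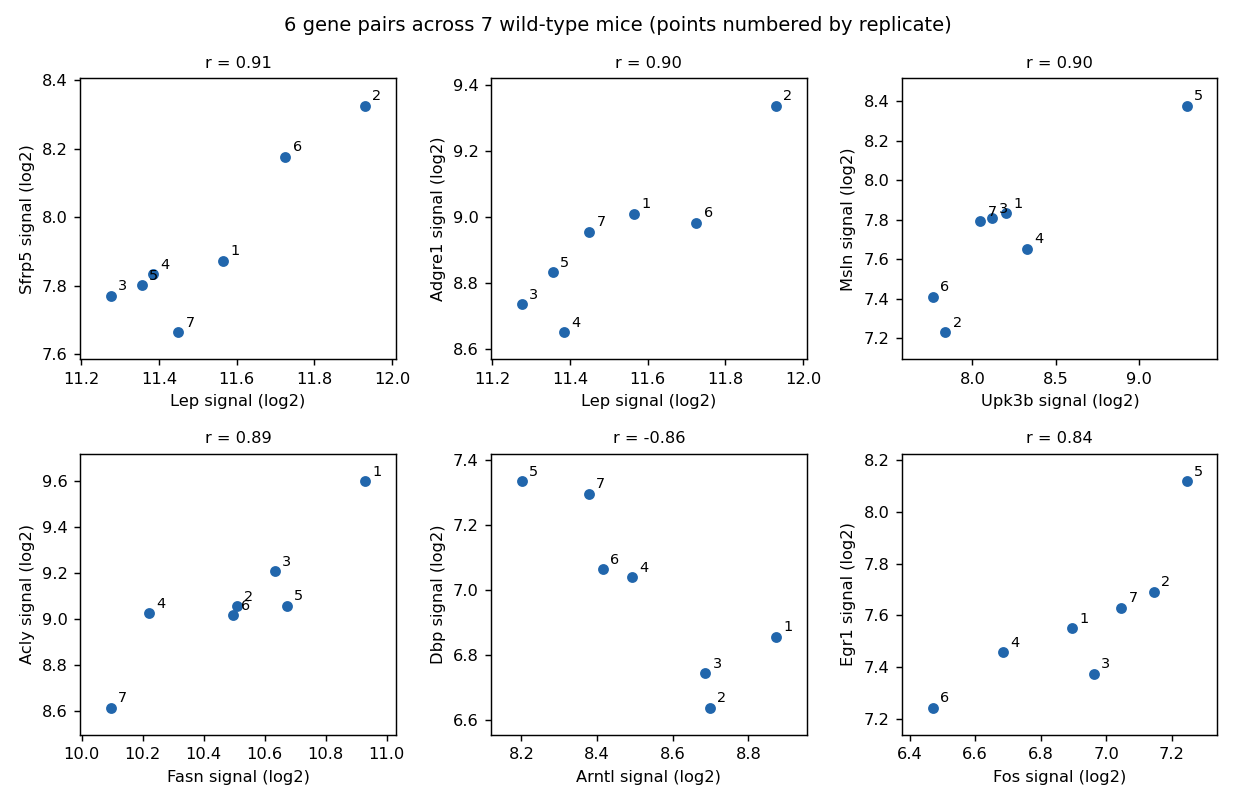
Scatter plots of log2 signals for 6 gene pairs, with 1 point per mouse numbered by replicate and Pearson's r above each panel. Lep and Sfrp5 rise together mainly through replicates 2 and 6, and Arntl and Dbp fall against each other over the 7 mice at r = -0.86.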

How the data were processed

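The members were the 7 wild-type arrays, and they, the gene lists and the pairs were chosen with earlier results of these data known. The deposited log2 values came from RMA, per the submitters' processing notes, which list affy 1.18 among further tools without saying what each did. RMA subtracts background, aligns the arrays' distributions and combines the probes of a set, which takes away any shift shared by most genes. Build and annotation version were not given in the sources used here. Detection per probe was not assessed, and precision is limited by the number of arrays.

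The platform annotation gave the gene names: 21789 probe sets had 1 symbol, 1621 several and 12147 none. Of the 21789, 21698 matched RefSeq (GRCm38.p6) by identifier. Of 19938 genes, 999 had several probe sets, and the brightest over the 7 arrays was used. SDs and correlations were computed with Python 3.11.15, numpy 2.4.6, scipy 1.17.1 and pandas 2.3.3, and figures with matplotlib 3.10.9. The 100 genes of largest SD at mean log2 above 7 were grouped by average linkage at r = 0.7. The scripts were tested on simulated data.

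Genes named were the 30 brightest (ribosomal, predicted and small RNAs as counts), the 40 of largest SD, the 2 of largest SD in each of 29 lists (626 entries, 566 measured), the pair genes, the 3 on each side of rank 100, the 3 of largest SD at means from 6.5 to 7, and the 10 steadiest of the 200 brightest. Other members of groups and lists were named after their values were seen. Alternatives were other normalizations, filters, measures of spread, group sizes and arrays left out. Leaving out replicates 4 and 7 together was chosen after seeing the data. Promoters were the 250 bases before the start, and matches were sought on both strands. Every motif was searched in each group, and others, among them the TATA box, were searched and are not described.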

Additional observations from a re-analysis of the deposited data

Results flagged for a closer look

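In 29 of the 155 named genes (18.7%) the highest or lowest mouse lay far from the other 6, by Dixon's ratio of the gap to the range against its critical value of 0.568 for 7 samples. Chance alone is expected to give about 1 in 20, and over all 11064 genes with means above 7 the share was 7.70%. Many of the named genes were chosen for a large SD, which favours such gaps. Replicate 4 accounted for 14, replicate 2 for 9, replicate 7 for 4, and replicates 5 and 6 for 1 each.

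In replicate 4 the high values were Spink8 12.96, Rnase12 12.69, Adam7 12.52, Ces5a 12.42, Wfdc10 12.36, Cd52 11.98, BC048679 11.97, Eddm3b 11.67, Wfdc16 11.66, Defb43 11.47, Npy 11.29 and Anapc13 13.34. Its low values were the endothelial receptors Kdr at 8.69 and Tek at 8.84.

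In replicate 2 the high values were those of the macrophage genes Cd68 at 10.66, Ctss at 11.43, Itgax at 7.65, Atp6v0d2 at 10.10 and Gpnmb at 9.73, of H2-Aa at 11.19, of Egr2 at 8.94 and of Casq1 at 8.12. Alb, which encodes albumin, was low there at 6.70.

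Replicate 7 was low for Baiap2l1 at 12.73, Myl6 at 12.75, Plin1 at 10.16 and Ndufv1 at 9.60. Replicate 5 was high for Upk3b at 9.29, and replicate 6 for Ppia at 12.12, the latter within a range of 0.11.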

How the results depend on the processing

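Quantile normalization, median centring of each array, averaging the probe sets of a gene and grouping at r = 0.8 moved no count by over 1.5 times. With replicates 4 and 7 left out together, 33 of the 100 variable genes were shared, 12 genes had an SD above 1 and 389 above 0.3, the largest group held 30 genes, replicate 2 was farthest for 31, and the 100 held 3 epididymis and testis, 7 mesothelial and 6 cell division genes. By the median absolute deviation 51 of the 100 genes were shared. With no filter on the mean, 35 were shared, 123 genes had an SD above 1 and 1729 above 0.3. At means above 8 these were 36, 13 and 257. With 50 genes the largest group held 32, and replicates 2, 4 and 7 were farthest for 2, 25 and 21. With 200 genes they were farthest for 25, 68 and 64.

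Leaving out each mouse in turn kept 65 to 97 of the 100 variable genes, with the lowest value without replicate 4, and 29 to 30 of the 30 brightest. The number with an SD above 1 was 22 to 59 and above 0.3 it was 502 to 734. The largest group held 51 to 65 genes. Replicate 2 was farthest for 10 to 21 genes, replicate 4 for 39 to 64 and replicate 7 for 39 to 57. The 100 held 3 to 8 epididymis and testis genes, 2 to 7 mesothelial, 0 to 3 lipid-associated macrophage (0 without replicate 2) and 0 to 4 cell division genes. The number of gene pairs past the adjusted threshold was 0 to 2: without replicate 7, Lep and Sfrp5 (r = 0.97) and Upk3b and Krt19 (r = 0.84) passed, both at an adjusted p of 0.017 by the exact permutation test.

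In some pairs r changed sign under another setting. Lep and Adipoq gave -0.16 with quantile normalization, -0.22 to 0.28 with mice left out in turn and -0.50 without replicates 4 and 7. Adipoq and Adgre1 gave 0.12 with median centring, a rho of 0.14, and -0.37 to 0.14 with mice left out. Col1a1 and Col3a1 gave 0.030 with median centring, a rho of 0.14, and -0.76 to 0.40 with mice left out. Ucp1 and Cidea gave a rho of -0.071, -0.074 without replicates 4 and 7, and -0.16 to 0.58 with mice left out. Ranges with mice left out were -0.080 to 0.58 for Fasn and Elovl6, -0.10 to 0.79 for H2-Aa and Cd74, and -0.74 to 0.25 for Gpx5 and Adam7. Leaving out the 2 mice farthest from the median of the first gene also turned 7 of the 24, among them Sfrp5 and Mest (0.64 to -0.61), Sfrp5 and Adgre1 (0.73 to -0.14) and Fasn and Scd2 (0.54 to -0.19). The cause of these changes was not tested.

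No paired analysis was possible because only 1 group was used, so the replicate numbers pair no samples. With 7 arrays, 1 mouse can set an SD or a correlation, and detection of dim signals was not assessed.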
